A study of Mus musculus with 10 samples.

Results

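Expression of 10 genes for cholesterol efflux and ATP-binding cassette (ABC) transport was followed in RAW264.7 cells, a mouse macrophage line. The genes were Abca1, Abcg1, Apoe, Scarb1, Mylip, Npc1, Npc2, Abcc1, Abcc5 and Abcb1b, found in the deposited counts by matching Ensembl identifiers to these symbols. They are 10 of 43432 features, and all 10 passed the filter on low counts that left 14172 genes tested. The cells fell into 5 conditions with 2 libraries each: the solvent control (0.5% DMSO, resting cells), the solvent control with lipopolysaccharide (LPS, a bacterial cell wall component) at 1 µg/mL (DMSO + LPS), and 9-keto-hexadec-7-enoic acid with its double bond in the E form (**1**) at 3.2, 10 and 32 µM with the same LPS. Compound or solvent was present for 1 h before LPS, and RNA was taken after 12 h. **1** was not given without LPS in these libraries, and all doses share the same pair of DMSO + LPS libraries. RAW264.7 is a virus-transformed line, so its resting state need not match that of macrophages in tissue.

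Macrophages take up lipoproteins and cell debris and cannot break down the sterol ring, so surplus cholesterol has to leave the cell. Cholesteryl esters are hydrolysed in the lysosome, NPC2 and NPC1 pass the free sterol out of that compartment, and ABCA1 and ABCG1 load it onto apolipoprotein A-I or E and onto high-density lipoprotein (HDL). The liver X receptors (LXR) sense oxysterols and switch on Abca1, Abcg1, Apoe and Mylip. Scarb1 encodes the HDL receptor SR-BI, and Mylip encodes IDOL, a ubiquitin ligase that marks the LDL receptor for degradation. Abcc1 (MRP1), Abcc5 (MRP5) and Abcb1b (a mouse P-glycoprotein) are exporters of a different kind. MRP1 exports glutathione conjugates and leukotriene C4, MRP5 exports cyclic nucleotides, and P-glycoprotein exports hydrophobic drugs.

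On GRCm38, with GENCODE M21 annotation, Abca1 (ENSMUSG00000015243) spans chr4:53030787-53159895 on the minus strand and Abcg1 (ENSMUSG00000024030) chr17:31057675-31117988 on the plus strand. Apoe (ENSMUSG00000002985) lies at chr7:19696109-19699188, minus strand, Scarb1 (ENSMUSG00000037936) at chr5:125277087-125341094, minus strand, and Mylip (ENSMUSG00000038175) at chr13:45389742-45412022, plus strand. Npc2 (ENSMUSG00000021242) lies at chr12:84754562-84773152 on the minus strand. Abcc1 (ENSMUSG00000023088, chr16:14361558-14475737, plus strand) and Abcc5 (ENSMUSG00000022822, chr16:20331303-20426394, minus strand) share a chromosome, and Abcb1b (ENSMUSG00000028970) spans chr5:8798147-8866315 on the plus strand. The deposited counts are per gene. Exons of Npc1 share 511 bases with Rmc1 and 90 bases with Gm15956 on the opposite strand, and those of Abcb1b share 143 bases with the antisense gene Gm5106, where reads can be told apart only if the counting used strand, which is not stated. Abcb1b has a related neighbouring gene, Abcb1a, which held at most 65 counts in a library, and reads common to both could have been assigned to either.

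RefSeq (GRCm38.p6) gave the 250 bases before the start of 6 of the 10 genes (Abca1, Abcb1b, Apoe, Npc2, Mylip and Abcc5). These 250-base windows were searched on both strands for a set of short motifs, whose letters are given below with the share of promoters that hold them. Those of Abca1, Mylip and Npc2 are shown, since Abca1 and Mylip are LXR-regulated genes that moved in opposite directions with LPS, and Npc2 changed most with **1**. Capitals mark matches to the motifs searched, and each sequence reads 5′ to 3′ along the gene's own strand.
Abca1, chr4:53159896-53160145, minus strand: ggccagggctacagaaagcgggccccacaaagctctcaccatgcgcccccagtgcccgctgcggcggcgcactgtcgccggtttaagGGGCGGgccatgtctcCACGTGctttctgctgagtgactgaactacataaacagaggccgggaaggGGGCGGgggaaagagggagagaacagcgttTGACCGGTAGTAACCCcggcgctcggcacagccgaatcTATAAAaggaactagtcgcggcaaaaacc
Mylip, chr13:45389492-45389741, plus strand: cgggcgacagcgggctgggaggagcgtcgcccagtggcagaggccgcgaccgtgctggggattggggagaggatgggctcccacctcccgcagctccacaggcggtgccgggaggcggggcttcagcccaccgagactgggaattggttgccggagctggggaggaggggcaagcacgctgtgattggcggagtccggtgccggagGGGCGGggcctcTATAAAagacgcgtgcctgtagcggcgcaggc
Npc2, chr12:84773113-84773362, minus strand: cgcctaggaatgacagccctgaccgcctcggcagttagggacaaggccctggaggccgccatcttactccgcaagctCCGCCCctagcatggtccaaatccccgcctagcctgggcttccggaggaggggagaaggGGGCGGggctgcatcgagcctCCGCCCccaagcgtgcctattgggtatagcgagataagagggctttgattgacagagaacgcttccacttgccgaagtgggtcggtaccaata
The Abca1 window holds a match to an LXR element, a direct repeat spaced by 4 bases searched as NGGTNANNNNNGGTNA, on the reverse strand (TGACCGGTAGTAACCC, beginning 67 bases before the start). Such a match occurs in 0.62% of the 32851 promoters in the table. It also holds the E-box CACGTG, which 6.02% of promoters hold on either strand. A pair of GC boxes is present too, and the letters searched, GGGCGG, occur in 32.74% of promoters. Its TATA box, searched as TATAAA, is a feature that 12.37% of promoters share. Mylip has a GC box and a TATA box, and Npc2 has 3 GC boxes, with no overlap among the matches shown. The antioxidant response element core TGACNNNGC was not found in the windows of these 6 genes and occurs in 10.16% of promoters. The sterol regulatory element core TCACNCCAC, which occurs in 1.05%, was not found there either. A match is a description of the letters and not a binding site.

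Library totals lay between 45966803 and 58976377 counts. Levels are given as CPM, counts scaled per 1e+06 of the TMM-adjusted library total. A gene at 5 CPM has a counting error of at most 6.60% in these libraries. That error is for read sampling alone. All 8 macrophage markers examined (among them Adgre1, Csf1r and Lyz2) were above 1 CPM in every library. Their summed level was between 10079 and 10988 CPM in resting cells, between 7939 and 7974 CPM in DMSO + LPS, and between 5970 and 6401 CPM at 32 µM. The 10 µM replicate 1 held 1777 counts of the 4 epithelial markers Epcam, Krt8, Krt18 and Cdh1, a summed level of 38.2 CPM, and 206 counts of 4 fibroblast markers (Col1a1, Col1a2, Pdgfra and Dcn). The 3.2 µM replicate 1 held 268 and 37 counts of these lists, while the other 8 libraries held at most 5 epithelial and 14 fibroblast counts. Results at 10 and 3.2 µM are therefore also given without both libraries, a fit in which the library left at each dose is assumed to vary like the other groups. The 32 µM replicate 2 had 2.83% of its counts on ribosomal RNA features, against at most 0.333% elsewhere.

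Scaled to exon length, the 10 genes covered a wide range of levels. In DMSO + LPS, Npc2 was at 112 CPM per kilobase of merged exons and Abcc1 at 39.5. Abcb1b (11.9), Npc1 (9.58), Scarb1 (8.83) and Abcg1 (8.33) formed a middle group, followed by Abcc5 (5.87), Mylip (3.01), Abca1 (2.60) and Apoe (0.986). Merged exons are longer than the transcript that cells use for several of these genes (5438 bases for Npc2, whose longest annotated transcript has 3299), so levels between genes are approximate. Apoe was low for a gene that tissue macrophages express strongly, with between 62 and 247 counts per library. The order was not the same in every condition: in resting cells Abca1 (1.2) was below Apoe (1.91), and at 32 µM Abcg1 (11.9) was above Npc1 (9.99) and Scarb1 (8.94).

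**Figure D1:**
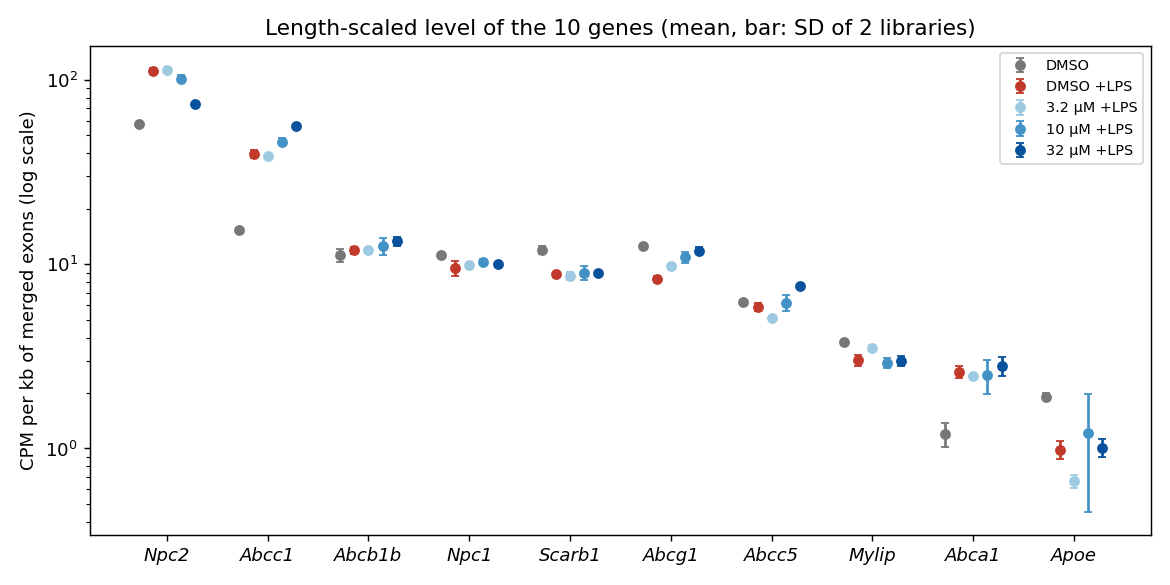
Length-scaled level (CPM per kilobase of merged exons, log axis) of the 10 genes, ordered by their level in DMSO + LPS. Points are means and bars the SD of 2 libraries in each of 5 conditions. Npc2 and Abcc1 were the highest genes in all 5 conditions, and the wide bar of Apoe belongs to 10 µM.

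The comparison of DMSO + LPS with DMSO asked which of these genes responded to LPS in the absence of **1**. Abcc1, Abca1 and Npc2 rose, by 2.57-, 2.17- and 1.96-fold, and Abcg1, Scarb1, Mylip and Npc1 fell. Of the 10 genes, 7 passed the test (edgeR quasi-likelihood F test, Benjamini-Hochberg adjusted p below 0.05 over all genes tested), with 3 higher and 4 lower. Among all genes tested 50.9% passed, 25.2% higher and 25.8% lower, so the share of these 10 was not far above that of the genome. The changes of the efflux pumps had opposite signs. The median log2 fold change was -0.16 over the 10 genes and 0.00 over all genes tested. An exact permutation test on 2 libraries a side reaches at best p = 0.333, and the tests therefore use a spread pooled across genes and conditions. The labels number the replicates as biological, without saying what was independent between them, so p-values measure the spread between these libraries. RNA was taken from whole cultures, where fewer cells of a kind and less RNA per cell cannot be told apart.

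Abca1, the pump for lipid-poor apolipoprotein A-I, stood at 11.1 and 13.8 CPM in resting cells and at 28.3 and 25.5 CPM in DMSO + LPS. The groups did not overlap, and the log2 fold change was 1.11 (SE 0.16, adjusted p = 0.000613). Abcg1, the pump for HDL, was at 93.1 and 89.0 CPM in resting cells and at 62.5 and 59.1 CPM in DMSO + LPS. It fell by 0.58 on the log2 scale (SE 0.07, adjusted p = 0.000141), also without overlap. Apoe, a lipid acceptor that macrophages secrete, had 247 and 224 counts in resting cells (4.20 and 3.95 CPM) and 111 and 107 counts with LPS (1.94 and 2.28 CPM). Its log2 fold change of -0.95 had a wide standard error of 0.37 and an adjusted p of 0.0632. This spread is pooled over all libraries, where the 10 µM libraries differed most for Apoe. Without the 10 µM replicate 1, in which epithelial markers were found, the adjusted p was 0.00119, and without replicate 2 it was 0.00123, at log2 fold changes of -0.95 and -0.96.

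Scarb1 was at 105 and 98.5 CPM in resting cells and at 75.7 and 74.3 CPM with LPS. All resting values were above all LPS values, a log2 fold change of -0.44 (SE 0.07, adjusted p = 0.00114). Mylip was at 12.1 and 12.3 CPM in resting cells and at 9.22 and 10.2 CPM with LPS. It fell by 0.32 (SE 0.09, adjusted p = 0.0148), a call that was lost without DMSO replicate 2 (adjusted p = 0.0568) or DMSO + LPS replicate 1 (0.110). Of the lysosomal pair, Npc2, a soluble carrier that hands cholesterol to NPC1, was at 316 and 309 CPM in resting cells and at 598 and 624 CPM with LPS. Npc2 rose by 0.97 on the log2 scale (SE 0.05, adjusted p = 1.15e-06). Npc1 (ENSMUSG00000024413, chr18:12189692-12236400, minus strand), the membrane protein that receives the sterol, was at 126 and 129 CPM in resting cells and at 116 and 101 CPM with LPS. Npc1 fell by 0.23 (SE 0.06, adjusted p = 0.0155), so the partners moved in opposite directions, although the call for Npc1 was lost without DMSO replicate 2 (adjusted p = 0.0601), without DMSO + LPS replicate 2 (0.0885) and in the 4 libraries alone (0.0521).

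Abcc1 was at 227 and 236 CPM in resting cells and at 617 and 575 CPM with LPS. Its log2 fold change of 1.36 (SE 0.05, adjusted p = 3.44e-07) was the highest among the 10 genes. Abcc5 was at 65.2 and 68.0 CPM in resting cells and at 64.7 and 60.7 CPM with LPS, a log2 fold change of -0.09 (95% interval -0.25 to 0.08). Abcb1b was at 84.3 and 94.5 CPM in resting cells and at 98.1 and 92.4 CPM with LPS, with overlapping libraries and a log2 fold change of 0.09 (95% interval -0.11 to 0.29). The scaling matters for small changes here. Library totals alone in place of TMM factors moved the median of all genes by -0.20 on the log2 scale, turned the sign of Abcb1b (-0.12) and put Abcc5 past the threshold (-0.29, adjusted p = 0.00930), while the directions of the 7 genes that passed stayed. With each library's score for short transcripts (the median relative level of genes with transcripts under 1000 nt) as a term in the fit, Abcb1b moved the other way, to 0.21 (adjusted p = 0.000276).

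**Figure D2:**
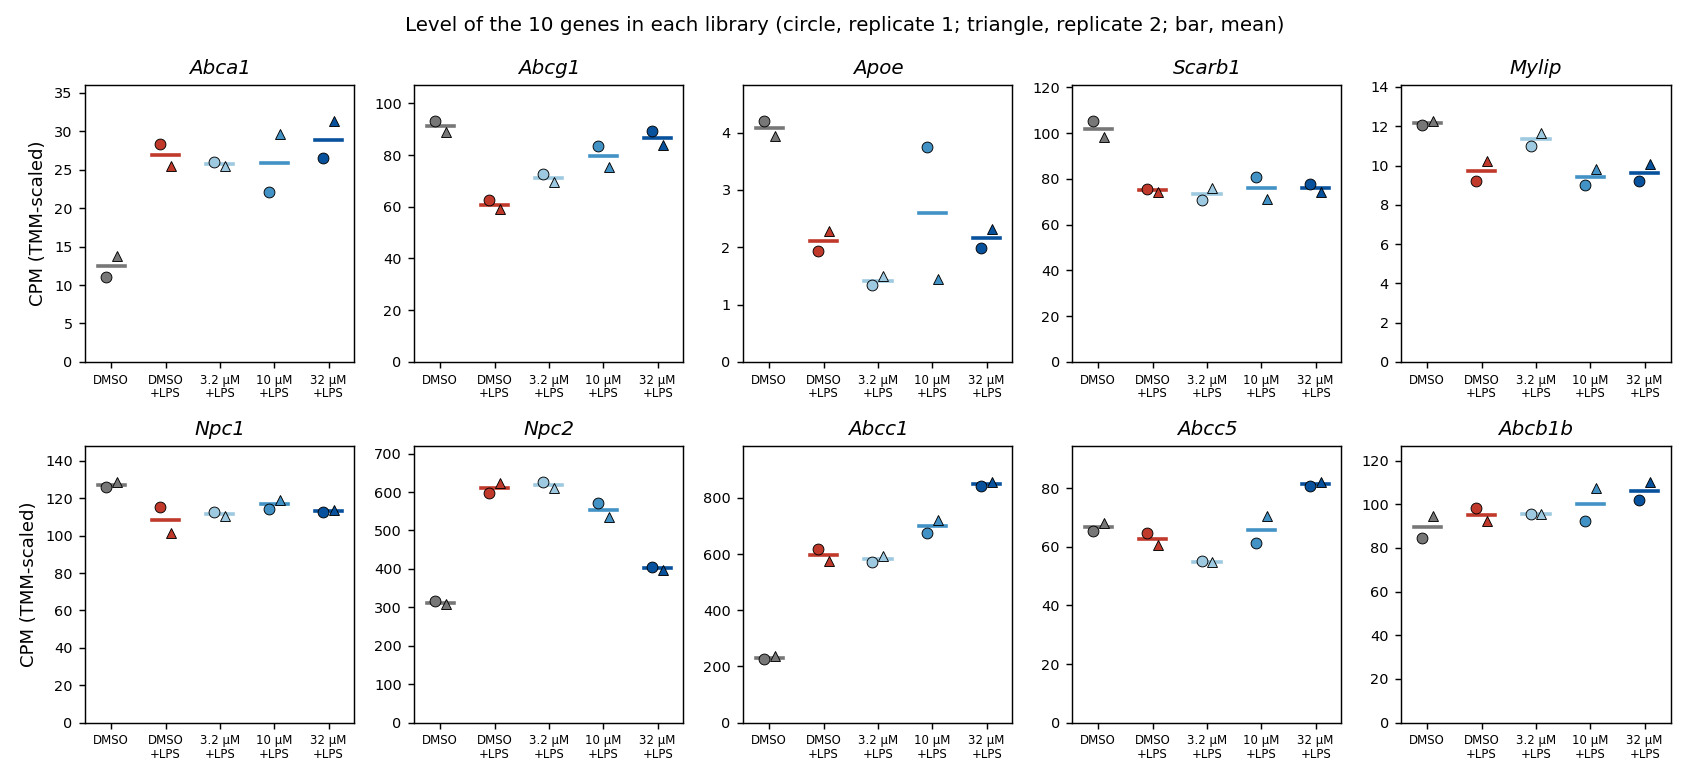
Level of each of the 10 genes (TMM-scaled CPM, axes from 0) in the 5 conditions. Circles and triangles are replicates 1 and 2 and bars are means of 2 libraries. Abca1, Npc2 and Abcc1 stood higher in every LPS-treated library than in resting cells, Abcg1 climbed from 60.8 CPM in DMSO + LPS to 86.6 CPM at 32 µM, and Npc2 dropped from 611 to 402 CPM.

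The comparison of 32 µM **1** with DMSO + LPS asked what the highest dose changed in LPS-treated cells. Abcg1, Abcc1 and Abcc5 rose, by 1.42-, 1.43- and 1.30-fold, and Npc2 fell to 0.657 of its level. Abca1, Apoe, Scarb1, Mylip, Npc1 and Abcb1b did not pass the test. The 4 genes that passed, 3 higher and 1 lower, compare with 9.78% of all genes tested (4.06% higher and 5.72% lower). Npc2 alone also changed at least 1.5-fold, as did 4.18% of all genes. The median log2 fold change was 0.08 over the 10 genes and 0.01 over all genes. The summed macrophage markers stood below those of DMSO + LPS at 32 µM, as given above, and their part in these changes was not tested.

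Abcg1 was at 89.2 and 84.0 CPM at 32 µM, above the 62.5 and 59.1 CPM of DMSO + LPS. It rose by 0.51 on the log2 scale (SE 0.07, adjusted p = 0.00196) and stayed past the threshold in all 21 alternatives tried (adjusted p at most 0.0268). The other efflux pump did not pass. Abca1 was at 26.5 and 31.3 CPM against 28.3 and 25.5 CPM, and its log2 fold change of 0.10 (95% interval -0.26 to 0.47) leaves room for a change in either direction. Apoe had 97 and 105 counts (1.98 and 2.32 CPM) and a log2 fold change of 0.03, with a 95% interval from -0.84 to 0.90 that spans much of the range seen among these genes. Scarb1 (77.7 and 74.2 CPM) had a log2 fold change of 0.02 (95% interval -0.15 to 0.18). Mylip (9.20 and 10.1 CPM) had one of -0.01 (-0.22 to 0.19).

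Npc2 was at 405 and 398 CPM at 32 µM, well below the 598 and 624 CPM of DMSO + LPS. It fell by 0.61 on the log2 scale (SE 0.05, adjusted p = 0.000135), and the call held in all 21 alternatives (adjusted p at most 0.00300). Npc1 was at 112 and 114 CPM, inside the range of DMSO + LPS (116 and 101), with a log2 fold change of 0.06 (95% interval -0.09 to 0.21). Abcc1 reached 844 and 857 CPM, against 617 and 575 CPM without **1**. This was a log2 fold change of 0.51 (SE 0.05, adjusted p = 0.000614), and it passed in all 21 alternatives (adjusted p at most 0.0101). Abcc5 was at 80.9 and 82.2 CPM, above the 64.7 and 60.7 CPM of DMSO + LPS, a log2 fold change of 0.38 (SE 0.07, adjusted p = 0.0120). That call rested on all 4 libraries. Leaving out DMSO + LPS replicate 1 or 2 gave an adjusted p of 0.0539 or 0.118, and leaving out 32 µM replicate 1 or 2 gave 0.0580 or 0.0767. Abcb1b was at 102 and 110 CPM against 98.1 and 92.4 CPM, with a log2 fold change of 0.16 (95% interval -0.04 to 0.36, adjusted p = 0.353). It passed with the score for short transcripts in the fit (0.13, adjusted p = 0.0131), where 5 of the 10 genes and 25.5% of all genes passed.

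**Figure D3:**
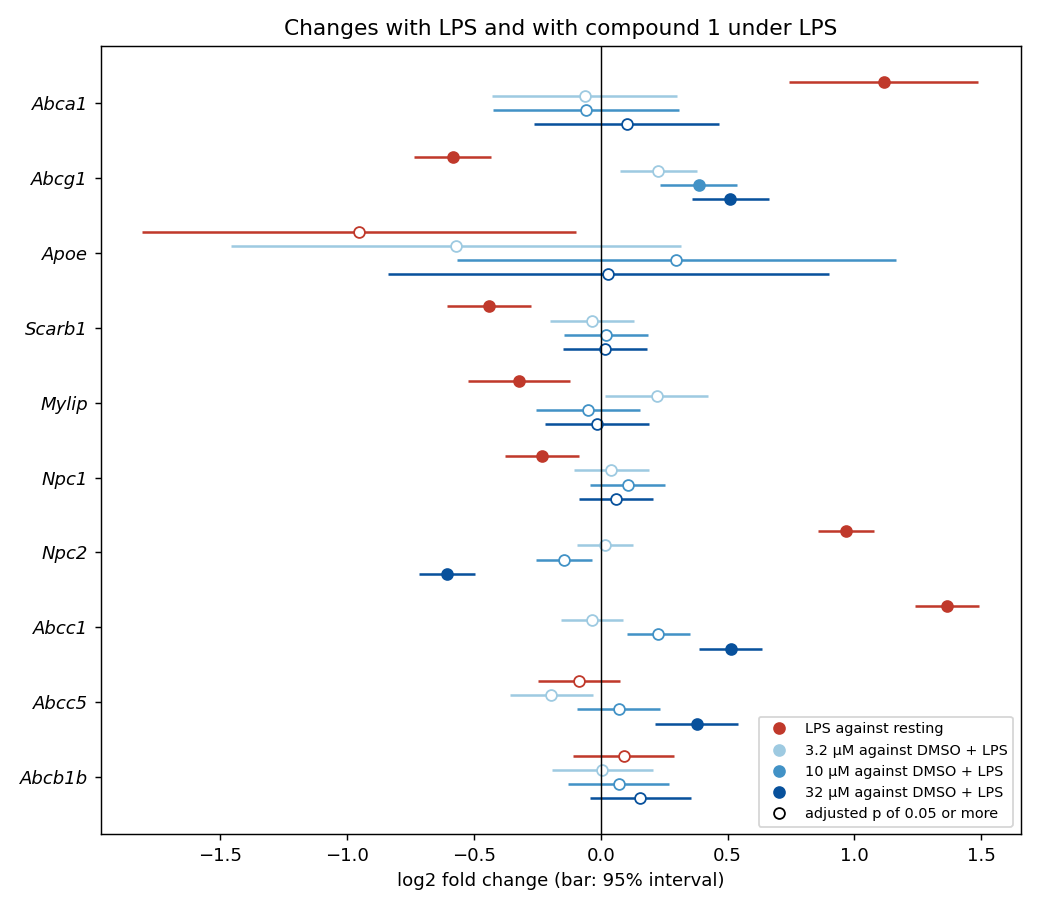
Log2 fold change of each gene with LPS (DMSO + LPS against DMSO, red) and with 3.2, 10 and 32 µM of compound 1 (blue, each against DMSO + LPS). Bars are 95% intervals and open points have an adjusted p of 0.05 or more. At 32 µM Abcg1 (0.51) and Npc2 (-0.61) moved opposite to their LPS changes (-0.58 and 0.97), Abcc1 (0.51) moved in the same direction as with LPS (1.36), and the LPS value of Abcb1b (0.09) turned negative with library totals alone.

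At the lower doses fewer of the 10 genes passed. At 10 µM this was 1 gene, Abcg1, against 2.67% of all genes tested. At 3.2 µM it was 0 genes, as for all genes tested (0%). At that dose 3 of the 10 genes had an unadjusted p below 0.05 (Abcg1, Mylip and Abcc5), as did 4.23% of all genes, while DESeq2 passed 27 genes and 0 of the 10. In edgeR on the 4 libraries compared 2 of the 10 passed, Abcg1 and Abcc5, against 3.64% of all genes in that fit. With both libraries that held epithelial markers left out, 0 of the 10 genes passed at 10 µM and 0 at 3.2 µM, against 0.332% and 0% of all genes in that fit.

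Abcg1 was at 72.8 and 69.5 CPM at 3.2 µM and at 83.6 and 75.4 CPM at 10 µM. With the 59.1 to 62.5 CPM of DMSO + LPS and the 84.0 to 89.2 CPM of 32 µM, no neighbouring groups in this series overlapped. The log2 fold changes against DMSO + LPS were 0.23 (adjusted p = 0.927), 0.39 (0.0228) and 0.51 (0.00196) in order of dose. The call at 10 µM was fragile. Leaving out 10 µM replicate 1 moved the value to 0.31 on the log2 scale with an adjusted p of 0.0904. Without both libraries that held epithelial markers it was 0.31 (adjusted p = 0.210), and the value at 3.2 µM was 0.19. The call at 10 µM was also lost without DMSO + LPS replicate 1 or 2, at log2 fold changes of 0.43 and 0.35. Without 3.2 µM replicate 1 or 2 it was lost at 0.39 in either fit. Tested directly, the steps from 3.2 to 10 µM (0.16, 95% interval 0.01 to 0.31, adjusted p = 0.554) and from 10 to 32 µM did not pass (0.12, 95% interval -0.03 to 0.27, adjusted p = 0.519).

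Npc2 was at 627 and 611 CPM at 3.2 µM, within the range of DMSO + LPS apart from 627 CPM, and at 571 and 536 CPM at 10 µM, below all of these. The log2 fold changes were 0.02 (95% interval -0.09 to 0.13) and -0.14 (-0.25 to -0.03, adjusted p = 0.246), and without both libraries with epithelial markers they were 0.0014 and -0.19. Between 10 and 32 µM Npc2 fell by 0.46 (SE 0.05, adjusted p = 0.00186), a step that passed in 20 of 21 alternatives, the exception being the 4 libraries alone (0.162), a fit in which 0.0374% of all genes passed. Without both libraries that held epithelial markers it was -0.42 (adjusted p = 0.0420). For Abcc1 the values were 572 and 592 CPM at 3.2 µM and 676 and 720 CPM at 10 µM. The former overlapped DMSO + LPS (617 and 575 CPM) and the latter lay above it, with log2 fold changes of -0.03 (95% interval -0.16 to 0.09) and 0.23 (0.10 to 0.35, adjusted p = 0.0830). Abcc1 passed at 10 µM with DESeq2 (adjusted p = 0.0116), while without both of those libraries it was at -0.0085 and 0.27 (adjusted p = 0.252 at 10 µM). Between 10 and 32 µM it rose by 0.28 (SE 0.05, adjusted p = 0.0329), but only 8 of 21 alternatives kept this call. It was lost without any of the libraries except 10 µM replicate 2, with an adjusted p between 0.0529 and 0.191, and without both libraries with epithelial markers (0.24, adjusted p = 0.327). Of the 10 genes, Npc2 and Abcc1 passed between 10 and 32 µM (2.76% of all genes), and 0 passed between 3.2 and 10 µM (0.903% of all genes), where 5 had an unadjusted p below 0.05, as did 8.38% of all genes, and DESeq2 passed 1, Abcc1, among 317 genes in all.

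Abcc5 was lowest at 3.2 µM, with 55.0 and 54.7 CPM, and at 61.3 and 70.5 CPM at 10 µM. The log2 fold change at 3.2 µM was -0.19 (95% interval -0.36 to -0.03, adjusted p = 0.999) and at 10 µM 0.07 (-0.09 to 0.23). Leaving out both libraries with epithelial markers moved these to -0.20 and 0.17. Abcc5 at 32 µM was above every library at the other doses, with a log2 difference from 10 µM of 0.31 (adjusted p = 0.0769), or 0.21 without those libraries (0.437). This step passed in 6 of 21 alternatives, among them DESeq2 (0.0106) and leaving out 10 µM replicate 2 (0.42, adjusted p = 0.0132). Mylip at 3.2 µM (11 and 11.7 CPM) lay above both DMSO + LPS libraries, with a log2 fold change of 0.22 (95% interval 0.02 to 0.42, adjusted p = 0.999) that became 0.26 without them. At 10 µM Mylip was at 8.98 and 9.80 CPM, close to DMSO + LPS. Scarb1 (70.7 to 81.0 CPM), Npc1 (111 to 119 CPM), Abcb1b (92.5 to 108 CPM) and Abca1 (22.1 to 29.7 CPM) had log2 fold changes between -0.06 and 0.11 at 3.2 and 10 µM, and their adjusted p was at least 0.612. Without both libraries the values of these genes, with Mylip at 10 µM, lay between -0.08 and 0.18 and their adjusted p was at least 0.638.

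Apoe is the gene in which a single library decided the value. It had 62 and 75 counts at 3.2 µM (1.34 and 1.5 CPM), and 174 and 65 counts at 10 µM (3.74 and 1.44 CPM). The high value belongs to 10 µM replicate 1, the library with the most epithelial and fibroblast marker counts, where Krt8 had 1039 and Epcam 451 counts. The log2 fold change at 10 µM was 0.30 with that library (95% interval -0.57 to 1.16) and -0.55 without it (adjusted p = 0.348). At 3.2 µM it was -0.57 (95% interval -1.46 to 0.32, adjusted p = 0.999), and -0.49 without both libraries. Replicate 1 at 3.2 µM held 268 epithelial counts, a level of 5.78 CPM against 38.2 CPM in 10 µM replicate 1. Apoe in that 3.2 µM library was at 1.34 CPM, against 1.5 CPM in its partner. The part of other cells' RNA in the value at 10 µM was not tested.

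**Figure D4:**
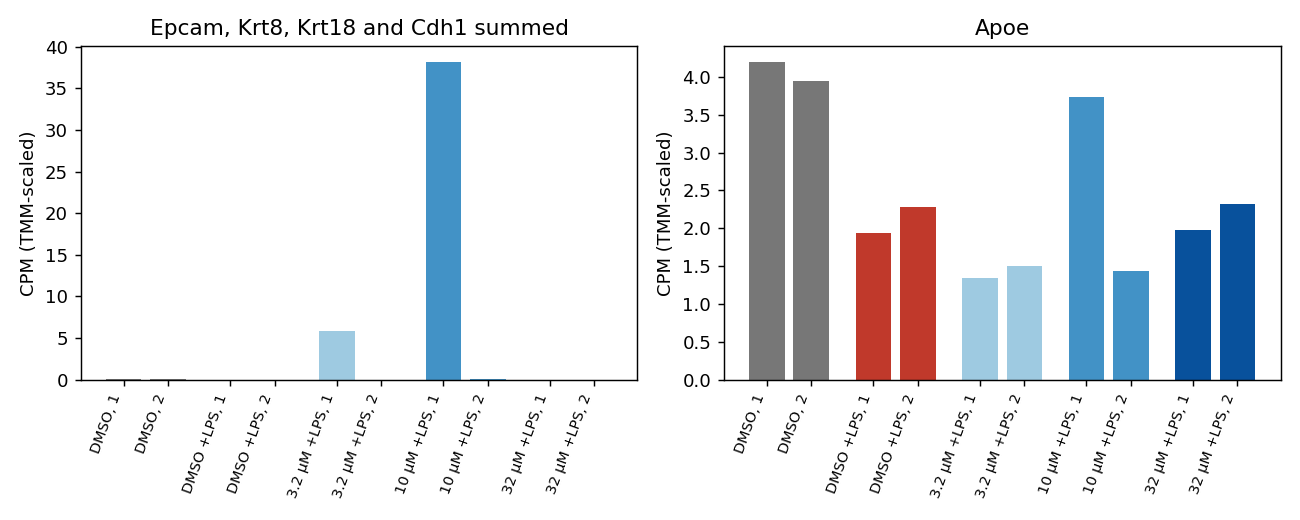
Summed level of the epithelial markers Epcam, Krt8, Krt18 and Cdh1 (left) and level of Apoe (right) in each of the 10 libraries, in TMM-scaled CPM, 1 bar per library. The tallest epithelial bar, 38.2 CPM, and the highest Apoe value among LPS-treated libraries, 3.74 CPM, belong to the same library, 10 µM replicate 1.

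Setting 32 µM with LPS beside resting cells shows how far each gene stood from its level without LPS. Of the 10 genes, 7 passed, with 5 higher and 2 lower, against 50.9% of all genes tested (25.7% higher and 25.1% lower). Abcc1 was 3.67-fold higher than in resting cells (log2 1.88, SE 0.05, adjusted p = 8.72e-08) and Abca1 2.32-fold (1.22, SE 0.16, adjusted p = 0.000387). Npc2 remained higher by 0.36 on the log2 scale (SE 0.05, adjusted p = 0.000368), at 398 to 405 CPM against 309 to 316 CPM. Abcc5 (0.29, adjusted p = 0.00889) and Abcb1b (0.25, adjusted p = 0.0424) were slightly higher. The call for Abcc5 was lost without DMSO replicate 1 (adjusted p = 0.0602), and that for Abcb1b without either library of DMSO, DMSO + LPS, 3.2 µM or 32 µM (0.0570 to 0.237). Library totals alone lowered these differences to 0.09 and 0.04.

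Scarb1 (-0.42, adjusted p = 0.00147) and Mylip (-0.34, adjusted p = 0.0127) were lower at 32 µM with LPS than in resting cells. Mylip lost its call without 32 µM replicate 1 (adjusted p = 0.0788). The libraries of Abcg1 overlapped between these conditions, at 84.0 and 89.2 CPM against 89.0 and 93.1 CPM, and its log2 difference of -0.07 had a 95% interval from -0.22 to 0.08. With library totals alone Abcg1 had a log2 difference of -0.28 (adjusted p = 0.00908). Npc1 (-0.17, adjusted p = 0.0525) and Apoe (-0.92, adjusted p = 0.0709) did not pass. Npc1 passed in 8 of 21 alternatives, among them library totals alone (-0.38, adjusted p = 0.00154) and leaving out either DMSO + LPS library (0.0191 and 0.0186). Without 10 µM replicate 1 Apoe passed (-0.92, adjusted p = 0.00150), as it did without replicate 2 (-0.94, 0.00141).

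The wider ABC family put the 5 ABC genes of the list in context. Of 53 family genes looked up, 33 passed the count filter. With LPS 11 of the 33 were higher and 10 lower, where 25.2% and 25.8% of all genes were, and the median log2 fold change was -0.09 against 0.00 for all genes. At 32 µM 7 rose and 2 fell relative to LPS alone, where 4.06% and 5.72% of all genes did, with a median of 0.09 against 0.01. The genes with the largest changes at 32 µM among those at 5 CPM or more were Tap1, Abcc4 and Abcb4. Tap1 carries peptides into the endoplasmic reticulum for antigen presentation. It rose from 32.2 to 131 CPM with LPS (log2 2.03, adjusted p = 1.02e-07) and fell by 1.56 at 32 µM (adjusted p = 5.41e-06). Abcc4 (MRP4) exports cyclic nucleotides and prostaglandins. It was at 78.7 ± 4.3 CPM (SD, n = 2) in DMSO + LPS and rose by 0.99 at 32 µM (adjusted p = 9.35e-05). Abcb4, the phosphatidylcholine transporter, was at 101 CPM in DMSO + LPS and rose by 0.84 (adjusted p = 8.79e-05). Abcc1 and Abcg1 had smaller changes than these at 32 µM, and Abcb1b and Abca1 lay among the 24 family genes that did not pass.

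**Figure D5:**
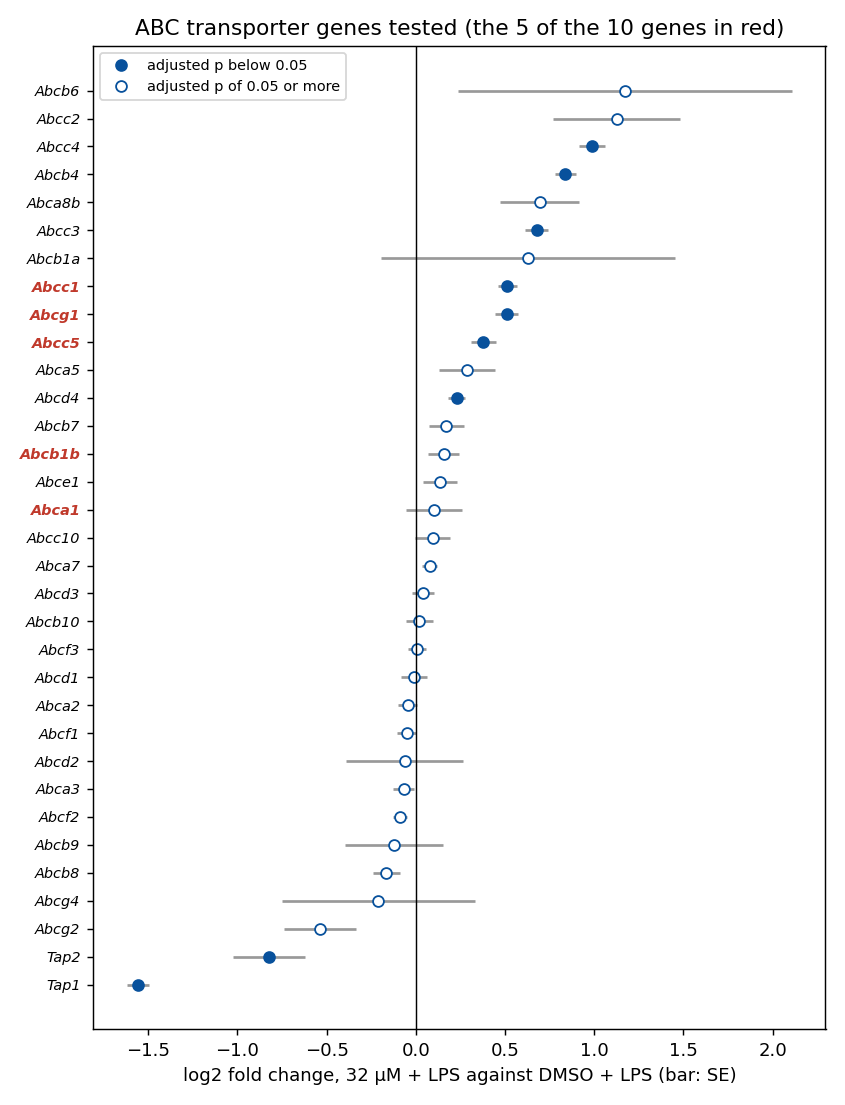
Log2 fold change at 32 µM with LPS against DMSO + LPS for the 33 ABC transporter genes tested, with SE. Filled points passed the test and the 5 genes of the list are in red. Abcc1 and Abcg1 (both 0.51) and Abcc5 (0.38) are filled, Abcb1b (0.16) and Abca1 (0.10) are open, and Tap1 (-1.56) has the lowest value.

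The genes around the efflux pumps were described by lists. Their counts can be read against the shares of all genes, which were 25.2% higher and 25.8% lower with LPS and 4.06% higher and 5.72% lower at 32 µM. Of 21 LXR, RXR and LXR-regulated genes tested, 4 were higher and 14 lower with LPS, with a median log2 fold change of -0.34. At 32 µM 3 were higher and 2 lower, with a median of 0.01, close to that of all genes. The 3 were Arl4c, Abcg1 and Smpdl3a. Arl4c, a small GTPase, was at 20.3 CPM in resting cells and 3.77 CPM in DMSO + LPS and rose by 0.96 at 32 µM (adjusted p = 0.000278). Smpdl3a, a phosphodiesterase, rose by 0.41 (adjusted p = 0.00562), a call lost without DMSO + LPS replicate 2 (0.0605). The lower genes, Scd1 (-0.33) and Fasn (-0.31), make fatty acids and were named after their values were seen. Abca1, Apoe and Mylip, of the same list, did not pass at 32 µM.

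Of 11 genes for cholesterol uptake, storage and ester hydrolysis, 3 were higher and 1 lower at 32 µM, and their median log2 fold change was -0.12. Lipa, the lysosomal acid lipase that frees the cholesterol that NPC2 carries, was at 688 ± 20 CPM (SD, n = 2) in DMSO + LPS and rose by 0.82 (adjusted p = 9.42e-06), opposite to Npc2. The scavenger receptors Stab1 (0.54, adjusted p = 0.00500) and Cd36 (0.53, adjusted p = 0.00330) also rose, Stab1 without its call when DMSO + LPS replicate 2 was left out (0.0590). The lower gene was also a scavenger receptor, Msr1 (-0.42, adjusted p = 0.000883), named after its value was seen. Among 18 genes of intracellular cholesterol traffic, 1 was higher (Lipa) and 4 lower at 32 µM, with a median of -0.05. Stard3, a late endosomal sterol transfer protein, rose by 0.59 with LPS (adjusted p = 8.43e-06) and fell by 0.48 at 32 µM (adjusted p = 0.000214), the same pair of directions as Npc2.

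Of 18 genes of the SREBP2 pathway and sterol synthesis, 10 fell, 0 rose and 8 did not pass the test at 32 µM, and the median log2 fold change was -0.30 against 0.01 for all genes. Insig1, which retains the SREBP complex in the endoplasmic reticulum, fell by 0.62 (adjusted p = 0.00525). The synthesis enzymes Lss and Hmgcs1 fell by 0.47 each (adjusted p = 0.0206 and 0.0285). Without DMSO + LPS replicate 2 these adjusted p values were 0.0513, 0.0962 and 0.145, and those of Lss and Hmgcs1 also missed the threshold without either 3.2 µM library or DMSO + LPS replicate 1. Lss also lost its call without 32 µM replicate 2 (-0.35, adjusted p = 0.104), and Hmgcs1 without 32 µM replicate 1 (-0.36, adjusted p = 0.149). At 10 µM 1 gene of this list was lower and 0 were higher, with 2.67% of all genes passing in either direction. With LPS alone 3 were higher and 10 lower, with a median of -0.34.

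Of 7 genes of oxysterol metabolism and sensing, 3 passed the count filter, and all 3 were lower with LPS. They were Cyp27a1, the sterol 27-hydroxylase (-2.05, adjusted p = 1.71e-05), Gpr183, the oxysterol receptor EBI2 (-1.96, adjusted p = 2.80e-07), and Hsd3b7, a dehydrogenase of bile acid synthesis (-0.99, adjusted p = 2.39e-06). At 32 µM Hsd3b7 rose by 0.60 (adjusted p = 0.000341), while Cyp27a1 (-0.25, adjusted p = 0.467) and Gpr183 (-0.05, adjusted p = 0.809) did not pass. Among 7 tested genes of apolipoproteins and lipoprotein remodelling, 0 were higher and 1 was lower at 32 µM. The lower gene was Lipg (-2.18, adjusted p = 0.00224), which had risen by 2.31 with LPS (adjusted p = 0.000247). Lipg had a mean of only 0.677 CPM and was named after its value was seen. Pltp, which transfers phospholipids between lipoproteins, fell by 0.69 with LPS (adjusted p = 0.000701) and had a log2 fold change of -0.14 at 32 µM (adjusted p = 0.545). The lists overlap in part, and all these comparisons use the same pair of DMSO + LPS libraries.

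Each gene that passed in any comparison, and so not Apoe, was also set beside all others by the shape of its level over the 5 conditions. The measure was the root mean square difference of group means of log2 CPM after centring. Candidates were 4009 genes with a mean of at least 5 CPM and a range of at least 0.5. Abcc1 was closest to Txnrd1 (difference 0.05), Hmox1 (0.05) and Fcrl1 (0.06). Txnrd1, thioredoxin reductase, and Hmox1, heme oxygenase, act against oxidative stress. Abca1 was closest to Mogat1, AA414768 and Atp6v1h (0.03 each). Npc2 was closest to Ogfr (0.03), Naa25 (0.05) and Tor1aip1 (0.05), and Scarb1 to Smarcd2, Rtel1 and Mtmr12 (0.02 each). For Abcg1 the closest genes were Apopt1, Mtss1 and Rgl2 (0.07 each), and for Abcc5 they were Slc40a1 (0.04), Tanc2 (0.06) and Ago3 (0.06). Slc40a1 encodes ferroportin, the iron exporter. Scarb1, Mylip, Npc1 and Abcb1b varied by less than the 0.5 asked of the candidates (0.47, 0.37, 0.24 and 0.25), so the genes nearest to them vary more than they do. For Mylip, Npc1 and Abcb1b these were mt-Nd2, Rnaseh2c and Vapa (0.07, 0.09 and 0.08). These are likenesses of 5 means and carry no test.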

How the data were processed

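Poly(A)-selected, directional libraries of 10 RAW264.7 samples were sequenced together, and the authors deposited whole-number counts per Ensembl gene without normalization. Per the labels the submitters' processing notes name Trimmomatic, FastQC, STAR, DESeq2 and mm10. The counting tool, its strand setting and the annotation are not given in the sources used here. Symbols came from GENCODE M21 for 42548 of 43432 identifiers, and those without a symbol held 0.0948% of counts.

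Counts were filtered with filterByExpr (minimum count 10), TMM-scaled and fitted in edgeR 4.0.16 (R 4.3.3) with 1 mean per condition over all 10 libraries and no covariate, which left 5 residual degrees of freedom. Quasi-likelihood F tests gave 7 comparisons, Benjamini-Hochberg adjusted over 14172 genes. Genes passed at an adjusted p below 0.05. Alternatives were DESeq2 1.42.0 (size factors, Wald test), library size alone, other filters, ribosomal RNA features removed, a replicate block, a short-transcript score in the fit (median relative log2 level of 1422 genes with transcripts under 1000 nt), the likelihood ratio test, the 4 libraries compared only and leaving out each library. The steps were tested on simulated data.

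The 10 genes and the lists were chosen with earlier results of these data known. All 10 genes were to be named, with, from each list, the 3 genes of at least 5 CPM with the largest change at 32 µM and, as nearest in shape, 3 genes for each of the 10 that passed in any comparison. The 10 µM and 3.2 µM replicates numbered 1 were left out together as an alternative chosen after their epithelial marker counts were seen.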

Additional observations from a re-analysis of the deposited data

Results flagged for a closer look

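For Npc2 and Abcc1 the direct comparison of 32 µM with 10 µM of **1** passed the test. Npc2 changed by -0.46 on the log2 scale, with 405 and 398 CPM at 32 µM against 571 and 536 CPM at 10 µM. Abcc1 changed by 0.28, with 844 and 857 CPM against 676 and 720 CPM. The call for Npc2 was kept in 20 of 21 alternatives and lost in the 4 libraries alone (adjusted p = 0.162), where 0.0374% of all genes passed. That for Abcc1 was kept in 8 of 21, and was lost in that fit (0.382) and without both libraries that held epithelial markers (0.327).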

How the results depend on the processing

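The numbers of the 10 genes that passed with LPS, at 32 µM and at 32 µM against DMSO were 7, 4 and 7. They stayed within 1.5 times under all alternatives except a required 1.5-fold change, which left 3, 1 and 2. At 32 µM against DMSO + LPS 4.18% of all genes met that requirement, and its share is not given for the other comparisons. The cause of the following shifts was not tested. At 10 µM (1 gene) a required 1.5-fold change, the 4 libraries alone and leaving out both libraries with epithelial markers gave 0, DESeq2's Wald test gave 2 and the short-transcript score gave 3. At 3.2 µM (0 genes) the 4 libraries alone gave 2 and the score gave 1. For 32 against 10 µM (2 genes) a required 1.5-fold change and the 4 libraries alone gave 0, library size alone and leaving out both libraries gave 1, and the score gave 4. For 10 against 3.2 µM (0 genes) DESeq2's Wald test gave 1 and the score gave 4. Of all genes, in the order of these 4 comparisons, 11.8%, 1.29%, 10.3% and 7.06% passed with the score, 0.307%, 3.64%, 0.0374% and 0% in the 4 libraries alone, 4.32%, 0.183%, 3.98% and 2.63% with DESeq2's Wald test, and 0.332%, 0%, 1.1% and 0.0276% without both libraries. With library size alone 2.58% passed for 32 against 10 µM. Leaving out single libraries also moved the number in some fits at 10 µM, for 32 against 10 µM and for 10 against 3.2 µM. Each such fit leaves 1 library in a group, so no counts or shares are given for them.

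Signs turned for values that had not passed. With LPS, library size alone gave -0.12 for Abcb1b, -0.15 for Lss and -0.046 for Abcc4, and the score gave -0.071 for Lss. At 32 µM, no count filter gave -7.24e-05 for Scarb1. Leaving out both libraries gave -0.55 for Apoe at 10 µM and -0.059 for 10 against 3.2 µM. Leaving out single libraries gave, at 32 µM, -0.024 to 0.22 for Abca1, -0.088 to 0.15 for Apoe, -0.016 to 0.050 for Scarb1, -0.089 to 0.062 for Mylip, -0.032 to 0.16 for Npc1 and -0.13 to 0.028 for Gpr183. They gave -0.057 to 0.17 for Abcc5 and -0.55 to 0.81 for Apoe at 10 µM, -0.012 to 0.050 for Npc2 and -0.084 to 0.017 for Abcc1 at 3.2 µM, and -0.017 to 0.12 for Lss with LPS.

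The replicate numbers were not taken as pairing the libraries, since not all same-numbered libraries deviated together. Their deviations correlated between 0.10 and 0.57 in the 6 pairs of conditions without DMSO + LPS, and between -0.17 and -0.066 in the 4 pairs with it. With the replicate block 7, 4 and 7 genes passed with LPS, at 32 µM and at 32 µM against DMSO. At 10 µM 1 gene passed. The share of all genes that passed in that fit is not given here. Of all values compared a single call changed, Hmgcs1 with LPS (-0.21, adjusted p = 0.0405). Apoe, at 62 to 247 counts, is the gene for which depth and spread limit the comparisons most.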
